A study of Mus musculus with 2 samples.

Results

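BMP signaling was followed through 10 genes chosen by symbol: the ligand gene Bmp4, the receptor gene Bmpr1a, the signaling Smads Smad1 and Smad5, the inhibitory Smads Smad6 and Smad7, and the target genes Id1, Id2, Id3 and Id4. All 10 were measured, out of 21574 protein-coding genes with an exon value. They carried 22 of the 24 protein-coding transcripts that GENCODE M21 lists for them, out of 49490 such transcripts in all, and 20 of the 22 also had an intron value.

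The values came from wild-type mouse embryonic stem cells of the DTCM23/49 XY line, kept without feeder cells on gelatin in medium with fetal bovine serum and leukemia inhibitory factor. The cells received 4-thiouridine (4sU), a uridine analogue that enters RNA made after its addition, at 200 µM for 10 min. RNA carrying 4sU (labeled) was separated from the remaining RNA (unlabeled), and each pool was sequenced as 1 library of replicate 1. In the labels the second pool is both "preexisting" and "total" RNA, and labeling is described as done in duplicate. With no replicate here, no difference has a replicate check, no test was made, and every rank below describes these 2 libraries. The deposited values of the labeled and unlabeled library added up to 10000003 and 9999998, so that 10 deposited units correspond to 1 TPM. They are normalised for transcript length, which allows levels of different genes to be set side by side, and their read depth is unknown.

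BMP ligands bind pairs of type I and type II receptor kinases at the cell surface, and the activated type I receptor phosphorylates Smad1, Smad5 and Smad9, which join Smad4 and enter the nucleus. Id genes are well-known direct targets; their products lack a DNA-binding region and hold bHLH transcription factors in inactive dimers. In mouse embryonic stem cells grown with serum and leukemia inhibitory factor, BMP signaling through Id genes is known for helping to hold back neural differentiation.

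Marker genes were checked first. All 13 embryonic stem cell markers had a mean exon value above 1, with sums of 12374 in labeled and 19140 in unlabeled RNA, and Tdgf1 was the most abundant. The 9 markers of feeder fibroblasts summed to 20.97 and 62.0, led by Acta2, and 3 of them were listed at 0 in both libraries. The 8 markers of primitive endoderm, led by Dab2, summed to 38.8 and 151.5, with 3 listed at 0 in both. The 4 mesoderm markers, led by Eomes, summed to 5.97 and 5.97, and the 4 trophoblast markers, led by Hand1, to 1.08 and 7.32. The 4 neural markers, led by Pax6, summed to 87.5 and 99.0, and the 4 markers of primed epiblast, led by Dnmt3b, to 3266 and 8210. Dnmt3b alone had 2639 and 7467 and Otx2 613 and 724, while Fgf5 (5.31 and 2.63) and Pou3f1 (8.79 and 16.4) were low. The markers of the labelled cell type were thus all present, and those of feeder cells were at a small share of their sum. Since the RNA was taken in bulk, fewer cells expressing a gene and less RNA per cell cannot be told apart, and the part of cells moving toward other fates was not tested.

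**Figure D1:**
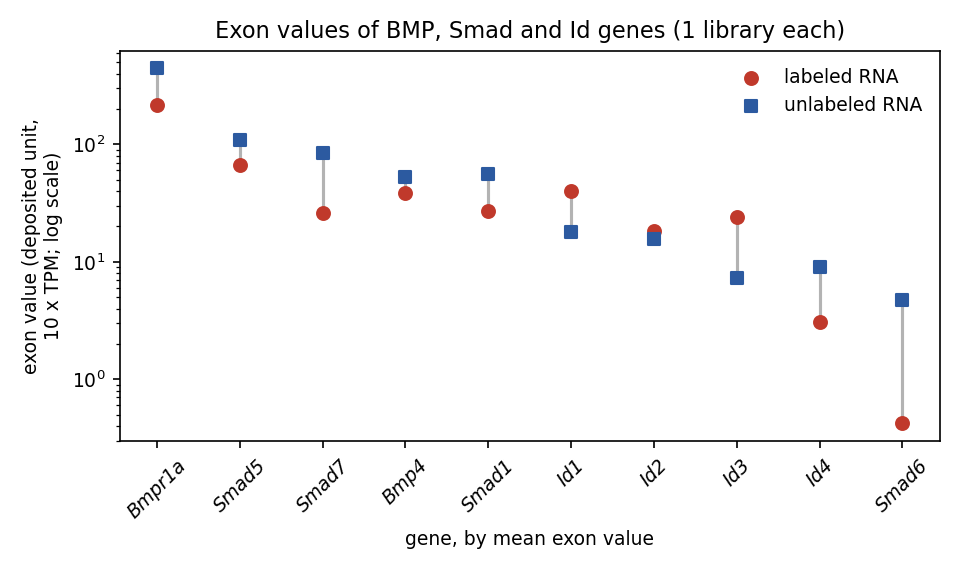
Exon values of the 10 genes in labeled RNA (red circles) and unlabeled RNA (blue squares) on a log axis, in the deposited unit, ordered by the mean of the libraries. Each point is 1 library. Bmpr1a was highest in both, at 218 and 443, and Smad6 lowest, at 0.420 and 4.72; the circle lies above the square for Id1, Id2 and Id3.

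In level, the receptor stood above its ligand, its Smads and their targets. Mean exon values ran from 330.6 for Bmpr1a, at the 87.7th percentile of the 14118 protein-coding genes with a mean above 1, through 88.5 for Smad5, 55.5 for Smad7, 45.5 for Bmp4, 41.7 for Smad1, 28.9 for Id1, 16.9 for Id2, 15.7 for Id3 and 6.07 for Id4, to 2.57 for Smad6, at the 8.84th percentile. The median gene had 38.1. The order differed between the pools: Id1 ranked 3 among the 10 genes in labeled RNA and 6 in unlabeled RNA, while Smad7 ranked 6 in labeled and 3 in unlabeled RNA.

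The labeled to unlabeled exon ratio compares RNA made within the labeling time with RNA carrying no label. Because each library is scaled to its own total, the ratio of a gene was read against that of the median gene, which was 0.837 (quartiles 0.521 and 1.501). Id1, Id2 and Id3 lay above the median gene and the other 7 below it. The median ratio of all 10 was 0.552, or -0.61 on the log2 scale relative to the median gene. For exon minus intron values (mature RNA), which could be computed for 7 of the 10, without Smad5, Smad6 and Smad7, the median was 0.45. The exon values of the same 7 genes gave -0.19. That change of sign came from the reference: the median gene of the 10113 genes with a mature value had a ratio of 0.507. This moved every gene with an unchanged ratio up by 0.72. Intron values were summed over coding transcripts for this. The introns of Id1 and Id3 were listed at 0, so that their mature values are only their exon values. The others stood at 0.84 for Id2, 0.45 for Bmp4, -0.79 for Id4, -1.47 for Bmpr1a and -1.65 for Smad1. The median of 0.45 thus depends on counting Id1 and Id3. At least 2 times above the median gene were 2 of the 10, Id1 and Id3, where 21.9% of all genes were. At least 2 times below it were 3 of the 10, Id4, Smad6 and Smad7, where 14.8% of all genes were. The first share is close to that of all genes. The highest ratio, of Id3, was 37.0 times the lowest, of Smad6. This span rests on the low labeled value of Smad6. With 1 added to each exon value the ratio of Id3 was 3.02 and that of Smad6 0.248.

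Across all genes the ratio also varied with the length of the leading transcript, the coding transcript with the highest mean exon value. Its median was 1.13 in the shortest decile of genes, up to 714 bases, 1.27 from 715 to 1075 bases, and then lower in each longer decile, down to 0.597 from 5469 bases upward. Read against the median of genes in the same decile of length, a reading added after the data had been seen, Id3 stood at 1.46 on the log2 scale and Id1 at 0.80, so that Id3 alone of the 10 was 2 times above, as were 19.4% of all genes. On the same scale Smad6 stood at -3.01 and Smad7 at -1.02, 2 of the 10 beside 14.0% of all genes, and Id4 at -0.94. Id2, above the median of all genes, stood at -0.03. The remaining genes were closer than 2-fold on this scale, with -0.60 for Smad1, -0.42 for Bmp4, -0.28 for Bmpr1a and -0.03 for Smad5. Length here is that of the leading transcript alone, while the ratio sums all coding transcripts of the gene. The part of length in these ratios was not tested.

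**Figure D2:**
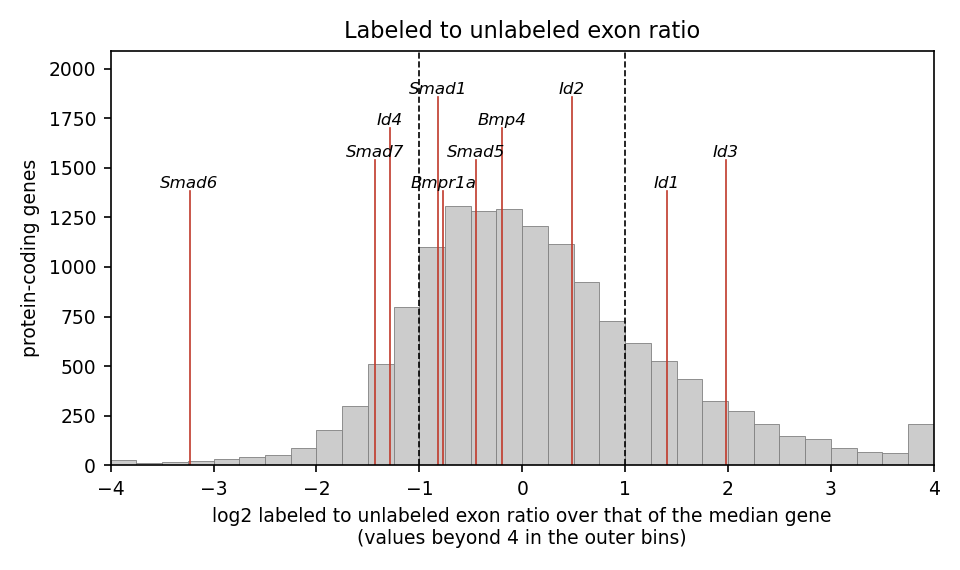
Histogram of the log2 labeled to unlabeled exon ratio, relative to the median gene, over 14118 protein-coding genes, with the 10 genes as red lines and 2-fold limits as dashed lines. Id1 (1.41) and Id3 (1.98) lie beyond the upper limit, and Id4 (-1.29), Smad7 (-1.43) and Smad6 (-3.23) beyond the lower.

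Bmp4 encodes a secreted ligand. Its exon value was 38.5 in labeled and 52.6 in unlabeled RNA, a ratio of 0.732, or -0.19 relative to the median gene. Bmp4 thus sat near the middle of all genes in both level and ratio, at the 53.4th and 42.8th percentile. Its mature RNA had a ratio of 0.693, lower than that of its exons, though above the lower median gene of mature RNA, at 0.45. Its coding transcripts ENSMUST00000100676 and ENSMUST00000074077 had ratios of 0.718 and 0.750. The former, leading one, at chr14:46383707-46390550 on the minus strand of GRCm38, had an intron value of 1.44 in labeled and 0.610 in unlabeled RNA. Its introns were few in both pools, with a labeled intron to exon ratio of 0.0671, at the 5.10th percentile of 12443 leading transcripts that had all 4 values above 0. Gm15217 and Gm15222 overlap Bmp4 on the opposite strand; whether counting used the strand is not given in the sources used here.

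Bmpr1a encodes a type I receptor that binds Bmp4. Its exon values of 218 in labeled and 443 in unlabeled RNA gave a ratio of 0.492, or -0.77 relative to the median gene. Its 4 coding transcripts differed in ratio: 0.279 for the leading ENSMUST00000049005, 0.594 for ENSMUST00000165280, 0.991 for ENSMUST00000171343 and 1.11 for ENSMUST00000171551. The last pair have no annotated 3′ end and hold 748 and 641 bases, against 5956 for the leading transcript. The leading transcript, with 13 exons at chr14:34410734-34502687 on the minus strand, had 71.3 in labeled and 256 in unlabeled RNA, which put it at -1.54 relative to the median leading transcript. Bmpr1a was thus 2 times below the median when read by this transcript, as it was for mature RNA (-1.47) and after subtraction of an assumed leakage of unlabeled into labeled RNA (-1.01). Against genes of like length the ratio of its summed transcripts was not, at -0.28. That reading joins the length of the leading transcript with the ratio of all 4. The leading transcript alone was not read against genes of like length. The mature value rests on introns summed over its 4 coding transcripts, which made 0.647 of its exon value in labeled RNA. With the mean intron value of these transcripts that share was 0.162, and a mature value was not computed from it. The introns of the 4 transcripts were alike, between 31.7 and 37.7 in labeled RNA and between 4.84 and 6.28 in unlabeled RNA. Gm17110 overlaps its 5′ end on the opposite strand.

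Smad1 and Smad5 encode the Smads that the BMP type I receptors phosphorylate. Smad1 had 26.8 in labeled and 56.5 in unlabeled RNA, a ratio of 0.475, or -0.82 relative to the median gene, and its coding transcripts had ratios of 0.505 and 0.403. Smad5 had 67.2 in labeled and 109.8 in unlabeled RNA, a ratio of 0.613, or -0.45. Both were lower in labeled than in unlabeled RNA, and neither was 2 times below the median gene by these values. Smad1 was so for mature RNA (-1.65) and after subtraction of leakage (-1.08). Its mature value too rests on summed introns, at 0.684 of its exon value in labeled RNA, where their mean made 0.342. The 3 coding transcripts of Smad5 had nearly equal ratios, 0.600, 0.622 and 0.613.

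The leading Smad1 transcript, ENSMUST00000066091 at chr8:79338395-79399518 on the minus strand, had an intron value of 9.84 beside an exon value of 20.1 in labeled RNA, and 2.23 beside 39.8 in unlabeled RNA. Its other coding transcript, ENSMUST00000109885, had 8.52 beside 6.71 in labeled RNA, a ratio of 1.27. The leading Smad5 transcript, ENSMUST00000109874 at chr13:56703668-56740304 on the plus strand, had 33.3 beside 25.4 in labeled and 9.78 beside 40.8 in unlabeled RNA. Transcript by transcript, Smad5 introns thus exceeded its exons in labeled RNA, with ratios of 2.30 and 1.66 for its other coding transcripts. The intron values of its 3 transcripts were near each other while their exon values share the total of the gene, and whether intron reads were split among transcripts or assigned to each is not known. Taken as 1 intron value per gene, the mean over its coding transcripts, against the exon sum, a reading added after the data had been seen, the labeled ratio of Smad5 was 0.571. A noncoding transcript, ENSMUST00000132302, and a retained intron, ENSMUST00000138677, both within Smad5, had exon values of 58.8 and 43.5 in labeled RNA, above each of its coding transcripts. How reads were shared among such overlapping transcripts was not tested. Of the 3 misc_RNA genes annotated inside Smad5 on its strand, none was analysed here.

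Smad6 and Smad7 encode inhibitory Smads, which block receptor or Smad activity and are themselves known targets of the pathway. Smad6 had an exon value of 0.420 in labeled and 4.72 in unlabeled RNA, all from ENSMUST00000041029 at chr9:63953076-64022059 on the minus strand. Its ratio of 0.0890 was 9.41 times below that of the median gene, at the 0.404th percentile. The introns of the same transcript went the other way, with 3.77 in labeled and 0.560 in unlabeled RNA. Smad6 was thus low in exon value in both pools, lower in labeled RNA, and its labeled introns exceeded its labeled exons 8.98 times, at the 99.0th percentile. With 1 added to each exon value its log2 ratio moved from -3.23 to -1.80. After subtraction of leakage Smad6 had neither an exon ratio nor a labeled intron to exon ratio, so that both values were lost.

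Smad7 had 26.2 in labeled and 84.7 in unlabeled RNA, a ratio of 0.310, 2.70 times below the median gene. Its 4 coding transcripts had ratios between 0.147 and 0.446. The leading one, ENSMUST00000026999 at chr18:75367529-75395935 on the plus strand, had exon values of 12.9 and 28.9 and intron values of 10.7 and 0.970 in labeled and unlabeled RNA. This transcript had the highest of the 4 ratios, and read by it Smad7 was at -0.86 relative to the median, short of 2-fold. Smad7 exons were thus lower in labeled than in unlabeled RNA while its introns were higher: the labeled to unlabeled intron ratio was 11.0, at the 95.3rd percentile, where the median leading transcript had 4.03 (quartiles 2.85 and 5.52). The intron ratios of its other coding transcripts were 4.62, 10.8 and 10.04, and that of the sums over all 4 was 7.95.

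Id1 and Id3 stood at the other end. Id1 had 39.8 in labeled and 17.9 in unlabeled RNA, a ratio of 2.22, which is 2.65 times that of the median gene and at the 84.9th percentile. Id3 had 24.0 in labeled and 7.29 in unlabeled RNA, a ratio of 3.30, which is 3.94 times that of the median gene and at the 91.5th percentile. Both were higher in labeled than in unlabeled RNA, unlike the ligand, the receptor and the Smads. The coding transcripts of Id1, ENSMUST00000038368 with 2 exons and ENSMUST00000109824 with 1, span the same chr2:152736251-152737410 on the plus strand and had ratios of 2.14 and 2.34.

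Introns could not be read for Id1 and Id3. The only intron of Id1, of 226 bases, lies wholly within the exon of ENSMUST00000109824, and its value was listed at 0 in both libraries. The introns of the Id3 transcript ENSMUST00000008016, at chr4:136143497-136145392 on the plus strand, hold 618 bases, of which 55.0% lie in exons of other transcripts, and were also listed at 0 in both. How reads over these bases were counted was not tested. A noncoding Id3 transcript, ENSMUST00000133946, had an intron value of 41.5 in labeled and 15.9 in unlabeled RNA, but 62.4% of its 505 intron bases lie in exons of other Id3 transcripts.

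Id2 and Id4 differed from Id1 and Id3. Id2, from ENSMUST00000020974 at chr12:25093801-25096092 on the minus strand, had 18.2 in labeled and 15.5 in unlabeled RNA, a ratio of 1.17, or 0.48 relative to the median gene. Id4, from ENSMUST00000021810 at chr13:48261228-48266026 on the plus strand, had 3.10 in labeled and 9.04 in unlabeled RNA, a ratio of 0.343, 2.44 times below the median gene. It fell short of 2-fold against genes of like length (-0.94) and for mature RNA (-0.79), where its own ratio was lower, at 0.293, and the median gene had moved. The Id family was thus spread over both sides of the median gene, with Id4 alone higher in unlabeled RNA. Id2 introns had 4.40 in labeled and 0.290 in unlabeled RNA, a ratio of 15.2, at the 97.6th percentile; of their 1022 bases, 45.9% lie in exons of other transcripts. Id4 introns had 0.450 in labeled RNA and were listed at 0 in unlabeled RNA, and A330033J07Rik and Gm49291 overlap the start of Id4 on the opposite strand. Summed over the 4 Id genes, the exon value was 85.2 in labeled and 49.8 in unlabeled RNA.

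A model with constant synthesis, processing of premature RNA and degradation of mature RNA sets limits on the intron to exon ratios of both pools. They can be described by it only where the labeled ratio exceeds the unlabeled ratio and stays under 1. In 7 of the 10 genes all 4 values of the leading transcript were above 0, and 5 of these 7, Id2, Bmp4, Bmpr1a, Smad1 and Smad7, lay within the limits, as did 71.5% of 12443 leading transcripts. The labeled ratio was 1 or more in Smad5 (1.31) and Smad6 (8.98), 2 of the 7, where 22.5% of all leading transcripts were. Both shares are close to those of all genes. The unlabeled ratios of the 7 had a median of 0.0335, against 0.0919 over all, and the labeled ratios a median of 0.529, against 0.472. From gene sums the unlabeled median was 0.0693, against 0.122 over 13022 genes, and over all 17 member transcripts above the minimum it was 0.105. With 1 intron value per gene, 6 of the 7 lay within the limits, all but Smad6, as did 77.9% of the 13022 genes; the median labeled ratio was then 0.342, against 0.271, and the unlabeled 0.0187, against 0.0581.

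**Figure D3:**
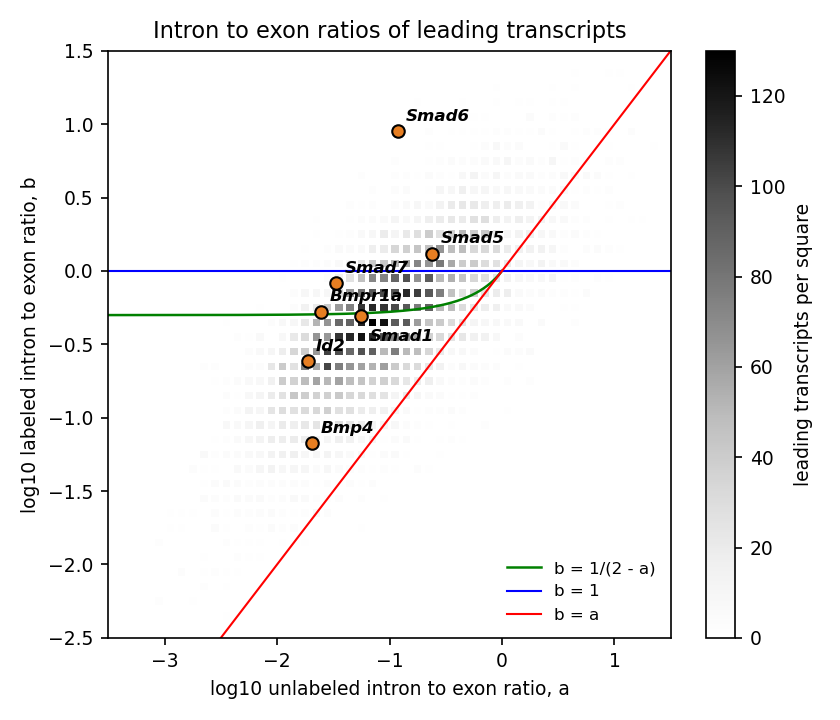
Unlabeled (x) and labeled (y) intron to exon ratios of leading transcripts on log10 axes, with the number of transcripts per square in gray and 7 of the 10 genes in orange; Id1, Id3 and Id4 have a value of 0 and are not shown. Above the green line an exact solution of the model exists, and above the blue or below the red line the ratios are outside its limits. Smad5 and Smad6 lie above the blue line and Bmp4 lowest of the 7.

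Within the limits, the ratios give degradation half-lives. Over the 8891 leading transcripts within the limits these had a median of 19.6 min (quartiles 10.6 and 40.8). Over the 2582 of them with 1 exact solution the median was 32.3 min. Bmpr1a, with 1 exact solution, had 42.8 min for degradation and 4.56 min for processing. Its value was 50.6 min from the sums over its coding transcripts and 24.2 min with 1 intron value per gene, and none could be computed once a leakage of unlabeled RNA, at 0.142 of the unlabeled value, was subtracted from the labeled library. Smad7, also with 1 solution, had 344.6 min, at the 97.4th percentile, but its ratios fell outside the limits when its transcripts were summed or leakage was subtracted. With 1 intron value per gene it had 2 solutions, the chosen one at 27.4 min.

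For the other 3 genes too the half-life depended on the computation. Smad1 had 2 solutions, 11.1 min, the one nearer to the rates of other transcripts, and 0.621 min, and it had 8.36 min with 1 intron value per gene, 46.9 min from summed transcripts and 50.9 min once leakage was subtracted. Id2 and Bmp4 had no exact solution, as had 5594 of the 8891 leading transcripts within the limits. The nearest fits of Id2 and Bmp4 gave 15.1 and 67.5 min. Fitted over processing and degradation freely, these 2 genes had 4.45 and 4.60 min, and Bmp4 had 110.9 min with 1 intron value per gene. The Bmp4 fit also lay far from its ratios, with a distance of 2.12 in natural log units against 0.564 for Id2. No order of half-lives among these genes can thus be read from these values.

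Genes with like values were sought among 8753 protein-coding genes with a mean exon value of at least 10, by the distance over the logs of both intron to exon ratios and of the exon ratio. Smad1 was nearest to Rras2 (0.0494) and Herc2 (0.0530), and Smad5 to E2f3 (0.0674) and Chrna7 (0.0829). Both Smads thus had close neighbors in all 3 ratios. Id2 was nearest to Clp1 (0.0804) and Zfp418 (0.129), Smad7 to Ina (0.104) and Zfp518b (0.182), and Bmp4 to Psmd5 (0.156) and Eif2b1 (0.180). For Smad6 the nearest were Tspan12 (0.553) and Gm43552 (0.569), but its own mean of 2.57 is under the minimum of 10, and genes at its level were not compared.

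Around the 10 genes, 73 other genes of the pathway were listed by role, of which 72 were found and 45 had a mean exon value above 1. Of the 45, 4 were at least 2 times above the median gene and 14 at least 2 times below it, or 8.89% and 31.1%, beside 21.9% and 14.8% of all genes. Their median was -0.65 on the log2 scale, close to the -0.61 of the 10 genes. Of the 34 marker genes of the first check with a mean above 1, 14.7% were 2 times above the median gene and 41.2% below it. Read against genes of like length, 3 of the 45 pathway genes were above and 17 below, where 19.4% and 14.0% of all genes were. Of the genes named below, Bmpr1b (-0.85), Smurf1 (-0.90) and Ski (-0.60) fell short of 2-fold on that reading, and Eng (-1.12) and Smad2 (-1.45) passed it. That reading takes the length of the leading transcript alone, while the ratio sums all coding transcripts of a gene. Eng and Smad2 were set against genes of 715 to 1075 bases by it, and whether most of their RNA has that length was not tested.

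Ligands other than Bmp4 had low values: of 13, only Bmp8a and Bmp8b had a mean above 1, and 5 were listed at 0 in both libraries. Bmp8b had 9.03 in labeled and 3.90 in unlabeled RNA and Bmp8a 5.64 and 2.99. Both, the only 2 tested, were at least 2 times above the median gene, beside 21.9% of all genes. Their means of 6.465 and 4.315 are low, and the counting error of such values could not be given. Next came Bmp7, at 1.31 and 0.160. Bmp4 was thus the most abundant BMP ligand of the list in both pools.

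Among the receptors, Bmpr2, the type II partner, had 60.9 in labeled and 97.3 in unlabeled RNA, Acvr1, another type I receptor, 35.9 and 45.8, and the co-receptor gene Eng 20.2 and 34.6. Bmpr1a thus exceeded each of them. Of 8 tested receptors and co-receptors, 2 (25%) were 2 times below the median gene, beside 14.8% of all genes. The 2 were Bmpr1b, a close relative of Bmpr1a, with 11.3 and 32.3, and the co-receptor gene Rgma with 6.43 and 15.9.

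Of the other Smads, the common partner Smad4 had 56.5 in labeled and 117 in unlabeled RNA. Smad2 and Smad3, which act downstream of activin and TGF-beta receptors, had 333 and 715, and 14.9 and 61.0. Smad3, at -1.78, was the 1 of 3 tested that was 2 times below the median gene, beside 14.8% of all genes. Smad9, the remaining BMP Smad, was at 0.350 and 0.110, under the minimum. Smad5 was thus the most abundant BMP Smad here, and Smad2 exceeded it in both pools.

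Of 16 secreted antagonists and binding proteins 5 were tested. Among these, 1 was 2 times above the median gene and 2 were 2 times below it, beside 21.9% and 14.8% of all genes. Twsg1 (39.6 in labeled and 125 in unlabeled RNA) and Fstl1 (26.9 and 101) were 2 times below the median gene, Fst (6.26 and 11.4) was not, and Dand5 (9.05 and 5.20) was 2.08 times above it, though not 2-fold against genes of like length (0.83 on the log2 scale). The antagonist gene Nog was at 0 and 0.180. Of the proteases that mature ligands, Pcsk6 had 32.8 and 61.5, and Furin, with 3.19 and 14.6, was 2 times below the median gene. Dand5, Nog and Smad9 were named after their values had been seen.

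The 22 intracellular inhibitors, ubiquitin ligases and cofactors were all tested, and 8 of them (36.4%) were 2 times below the median gene, beside 14.8% of all genes. The 8 were Tgif1 (2086 in labeled and 5471 in unlabeled RNA), Usp9x (1053 and 4211), Fkbp1a (908 and 3888), Rnf111 (138 and 450.5), Crebbp (62.9 and 212), Ski (73.0 and 177), Tob1 (63.7 and 178) and Smurf1 (24.7 and 73.7). Only Bambi, which encodes a pseudoreceptor that dampens BMP and TGF-beta signals and is a known target of the pathway, was 2 times above. Among all genes 21.9% were 2 times above, and Bambi was singled out after its value had been seen. Bambi had 8.83 in labeled and 1.10 in unlabeled RNA, 9.59 times the ratio of the median gene and more than that of Id3. This ratio rests on a low unlabeled value, and the mean of Bambi, 4.965, is under the minimum of 10 used for naming. Its ratio with 1 added to each exon value is not reported here. The bHLH genes whose products Id proteins bind were far more abundant than the Id genes: Tcf4 had 982 in labeled and 2119 in unlabeled RNA, Tcf3 389.6 and 644, and Tcf12 342 and 628. None of these 3 was 2 times from the median gene. Against genes with a leading transcript of like length, Tcf4 (-1.08) and Tcf12 (-1.22) were 2 times below, beside 14.0% of all genes. These leading transcripts fell among those of 1517 to 1910 bases for Tcf4 and 715 to 1075 for Tcf12, while the ratios sum all coding transcripts. Whether most of their RNA has that length was not tested.

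The 3′ untranslated regions were searched on the transcribed strand for ATTTA and for the longer TATTTAT, which contains it, letters known from AU-rich elements. TATTTAT was present in 5 of the 10 leading transcripts, where it was present in 24.3% of 12738 genes. Id2 held it 2 times and Id4, Smad5, Smad6 and Smad7 each 1 time. Bmpr1a had 8 copies of ATTTA alone, and Id1, Id3, Bmp4 and Smad1 had no copy of either. ATTTA was thus present in all of the 10 but Id1, Id3, Bmp4 and Smad1, where it was present in 60.6% of the 12738 genes. Untranslated regions differed in length, from 152 bases in Bmp4 to 3810 in Bmpr1a, around a median of 776 over all genes. Over all genes, those with TATTTAT had a median log2 ratio of -0.28 relative to the median gene and those without it 0.14, and the part of length in this difference was not tested. The Id2 and Smad6 copies are shown because these genes lay far apart in ratio; each line runs 5′ to 3′ in GENCODE M21 transcripts, with TATTTAT in capitals.
Id2, base 212 of the untranslated region: tgataccgtTATTTATgagagactt
Id2, base 461 of the untranslated region: ctgtgtataTATTTATatataaata
Smad6, base 187 of the untranslated region: caacgtaatTATTTATatatggtgc

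Promoter sequences of RefSeq, 300 bases around each annotated start on GRCm38.p6, were matched by symbol for 8 of the 10 genes; Id1 and Smad7 had no entry used here. They were searched on both strands for GGCGCC, known from BMP-responsive elements, and for GTCTAGAC, the palindrome to which Smad3 and Smad4 bind. The shorter Smad motif CAGAC was searched as well, as was the TATA box motif, spelled TATAAA. No motif contains another. GGCGCC was present in 4 of the 8 genes, Id2, Id4, Bmpr1a and Smad5, and in 13.4% of 27025 genes with a promoter entry, each counted once over all its listed starts. GTCTAGAC was present in Smad6 alone of the 8, and in 67 of the 27025 genes, or 0.248%. CAGAC was present in Id3 and Smad5, and in 53.2% of all, and TATAAA in none of the 8 and in 15.7% of all. The Id2 and Id4 windows, which share GGCGCC, and the Smad6 window are shown 5′ to 3′ on the strand of the gene, with GGCGCC or GTCTAGAC in capitals. Id2 is at chr12:25096043-25096342 on the minus strand, Id4 at chr13:48260866-48261165 on the plus strand and Smad6 at chr9:64022010-64022309 on the minus strand. The copies begin at base 20 of the Id2 window, base 103 of the Id4 window and base 247 of the Smad6 window, where the copy spans the annotated start of the gene.
Id2 promoter: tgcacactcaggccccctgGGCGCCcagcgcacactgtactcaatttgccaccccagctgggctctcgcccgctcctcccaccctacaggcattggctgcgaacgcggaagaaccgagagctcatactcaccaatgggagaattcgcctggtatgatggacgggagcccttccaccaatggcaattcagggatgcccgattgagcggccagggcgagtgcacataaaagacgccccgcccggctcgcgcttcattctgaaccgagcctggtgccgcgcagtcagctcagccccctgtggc
Id4 promoter: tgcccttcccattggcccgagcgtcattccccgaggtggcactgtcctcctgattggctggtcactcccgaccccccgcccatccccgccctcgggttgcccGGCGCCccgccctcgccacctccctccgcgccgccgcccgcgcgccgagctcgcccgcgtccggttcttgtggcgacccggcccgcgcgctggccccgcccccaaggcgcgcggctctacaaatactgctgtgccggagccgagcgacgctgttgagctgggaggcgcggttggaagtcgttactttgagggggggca
Smad6 promoter: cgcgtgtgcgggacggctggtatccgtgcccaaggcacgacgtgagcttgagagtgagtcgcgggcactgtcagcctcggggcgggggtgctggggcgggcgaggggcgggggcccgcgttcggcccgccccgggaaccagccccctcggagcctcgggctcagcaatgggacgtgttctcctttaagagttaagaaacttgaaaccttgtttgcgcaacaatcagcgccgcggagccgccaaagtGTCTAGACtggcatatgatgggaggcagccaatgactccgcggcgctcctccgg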

How the data were processed

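The authors aligned reads free of ribosomal RNA to exons and introns. They deposited an exon signal for 121429 transcripts and an intron signal for 91702, which they call TPM. The submitters' processing notes name STAR 2.5.0, RSEM and GRCm38. Of the transcripts, 110366 (90.9%) were found in GENCODE M21, which gave symbols and biotypes. Exon values were summed over the protein-coding transcripts of a gene, and genes with a mean above 1 were kept. Ratios had no pseudocount. The half-lives came from a model solver tested on simulated data. The members and lists were chosen with earlier results of these data known. All 10 genes were named; of other pathway genes, the highest in each role (up to 3) and those at least 2 times from the median gene with a mean of at least 10; for each member with intron values, the nearest pair of genes, which is not reported here for Bmpr1a. Alternatives were other minimums, pseudocounts, folds (1.5 and 3), transcript sets, 1 intron value per gene, leakage (1st percentile of the exon ratio), fits, and length. Hjv was not matched. Computation used scipy 1.17.1, pandas 2.3.3 and numpy 2.4.6 under Python 3.11.15, with matplotlib 3.10.9 for figures.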

Additional observations from a re-analysis of the deposited data

How the results depend on the processing

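No paired analysis was possible because each pool has 1 library and no result comes from a test. The count of genes at least 2 times below the median gene, 3 of 10, was 1 of the 8 genes left with a minimum mean of 10 (11.3% of all genes), and 5 with all transcripts of a gene summed (20.1%), a setting that compares 22757 genes and lowers every gene with an unchanged ratio by 0.35 (log2), by which Bmpr1a and Smad1 passed 2-fold. It was 5 with a fold of 1.5 (28.5%) and 1 with a fold of 3 (4.56%). Read by leading transcripts it was again 3 (15.4%), with Bmpr1a in the place of Smad7. With leakage subtracted it was 4 of 9 genes, Id4, Bmpr1a, Smad1 and Smad7 (21.4%). For mature RNA it was 2 of 7 genes, Bmpr1a and Smad1 (22.7%). Against genes of like length it was 2, Smad6 and Smad7 (14.0%). The count above, Id1 and Id3, was 1 (Id3) with a fold of 3 (12.7% of all genes) and 1 (Id3) against genes of like length (19.4%), a reading chosen after seeing the data; both genes were above in each of the other settings. The median log2 ratio of -0.61 was 0.45 for mature RNA, exon minus intron value, which could be computed for 7 genes, whose exon values gave -0.19. The median gene of mature RNA was lower, which raised unchanged genes by 0.72. These 7 include Id1 and Id3, whose introns were listed at 0, and the median of 0.45 depends on counting them. Mature values used introns summed over coding transcripts and were not computed with 1 intron value per gene. The median labeled intron to exon ratio of 0.529 was 1.04 over all 17 member transcripts above the minimum, 0.857 with leakage subtracted, and 0.342 with 1 intron value per gene, a reading also chosen after seeing the data. The unlabeled median of 0.0335 was 0.0693 from gene sums, 0.105 over those 17 and 0.0187 with 1 intron value per gene. With leakage subtracted, which left 6 of the 7 genes, all but Smad6, 3 stayed within the limits of the model, as did 64.9% of all. Of the other changes the cause was not tested. Of the values for single genes, 9 of the log2 ratios moved by over 1.5 times and 65 did not, and 8 half-lives moved and 7 did not. Depth is unknown, so the counting error of low values, as of Smad6, Id4 and the introns of Id2, could not be given.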

Other observations

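Further transcripts of these genes outside the coding set had values as well. The noncoding Smad1 transcript ENSMUST00000066081 had an exon value of 12.1 in labeled and 30.3 in unlabeled RNA, above those of the coding ENSMUST00000109885, at 6.71 and 16.7. The retained intron of Bmp4, ENSMUST00000135408, had 4.32 and 6.16. The noncoding Smad6 transcript ENSMUST00000144323 was listed at 0 in exon value in both libraries, while its introns had 3.61 in labeled and 0.570 in unlabeled RNA, close to the 3.77 and 0.560 of the coding transcript. The noncoding Smad7 transcript ENSMUST00000172718 had exon values of 1.89 and 11.6 and intron values of 12.9 and 0.780. The 4 coding Smad7 transcripts had labeled intron values between 10.7 and 12.5, while their labeled exon values ran from 3.03 to 12.9. The Id3 window in the promoter table, chr4:136143572-136143871, lies within the GENCODE M21 transcript ENSMUST00000008016, which starts upstream of it.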
